A study of Mus musculus with 6 samples.

Results

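The 35 genes described here are macrophage identity and myeloid genes, followed in pancreatic islets of wild-type and hIAPP-Tg mice. They were taken as a list of symbols covering lineage markers, receptors, integrins, surface proteins, cytoskeletal proteins and transcription factors, and every probe set annotated to exactly 1 of these symbols was used. All 35 were measured, by 58 of the 45037 probe sets tested, out of 18193 genes with a named probe set. Expression came from Affymetrix mouse arrays, 1 per mouse, with 3 wild-type mice (replicates 1 to 3) and 3 hIAPP-Tg mice (replicates 4 to 6). The islets were taken at 12 weeks of age from mice on standard chow. Both genotypes were labelled as line FVB/N-Tg(Ins2-IAPP)RFHSoel/J, a name for a human IAPP transgene driven by an insulin promoter and hence by beta cells. The human peptide, islet amyloid polypeptide, can form amyloid, which the mouse peptide does not readily do.

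Macrophages live in healthy islets, close to the vessels and the beta cells. They depend on signals through the receptor Csf1r, are built on the transcription factor PU.1 (gene Spi1), and carry surface proteins such as CD11c and CD45 that are used to sort them. Amyloid and dying cells are taken up by such phagocytes, which then digest the cargo in lysosomes. The comparison asks how far transcripts of these cells differ between the genotypes in whole-islet RNA. In such RNA a change in the number of cells and a change in RNA per cell cannot be told apart.

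The labelled tissue was checked first. The hormone genes Ins2, Iapp, Gcg, Sst and Ppy had values of 14 or more on the log2 scale on all 6 arrays, and their differences lay between -0.10 and 0.033. T and NK cell markers (14 measured, 11 of them with both genotype means under the array median of 5.7) had a list mean of 5.04 to 5.06 in wild type and 5.01 to 5.04 in hIAPP-Tg islets. Acinar markers varied between arrays of the same genotype. Their mean over 20 genes was 10.28, 11.65 and 12.03 in wild type and 11.48, 8.97 and 10.5 in hIAPP-Tg islets, so the genotypes overlapped. Samples are separate mice per the labels, and no pair of arrays was a copy, since at most 24.3% of values were identical between any pair at a rounding step of 0.1.

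Most of the myeloid genes were higher in hIAPP-Tg islets, but the test over all probe sets called 1 of them. Each gene is given by its brightest probe set, by the mean of the 6 arrays, and all values are log2 values. Of the 35 differences, 31 (against 48% of all genes) lay above 0 and 4 below, with a median of 0.47 against 0 over all 18193 genes. Mpeg1 was the only member past an adjusted p of 0.05 (limma, Benjamini-Hochberg adjustment over all probe sets), where 0.0385% of all genes passed in the same direction. At an unadjusted p under 0.05, 21 members (60%) were higher and 0 lower, against 5.02% and 3.45% of all genes. For 19 members (54.3%) every hIAPP-Tg array lay above every wild-type array, against 4.49% of all genes. A log2 difference of 1 or more was measured for 8 members (22.9%), against 0.225% of all genes. Transcripts of the same cells can move together, so these counts cannot be taken as counts of independent genes. The adjusted calls changed with the settings of the fit. With a robust prior in limma, and with random noise inside the rounding step (median of 20 draws), 6 members passed in place of 1, namely Mpeg1, Gpr34, Cd68, Ctss, Cd53 and Cd84. Over all 45037 probe sets the calls went from 13 to 51 with the robust prior and to 52.5 with the noise.

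**Figure D1:**
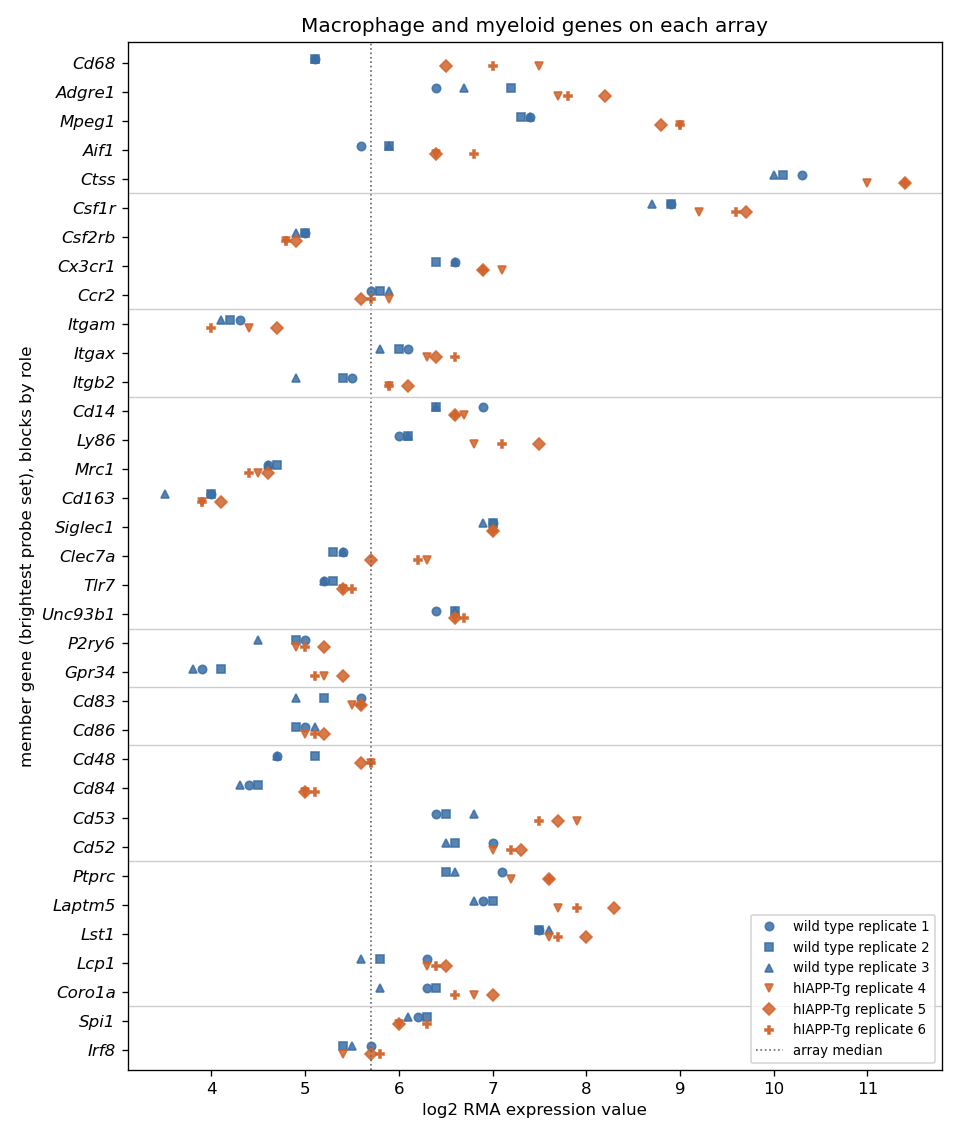
Log2 RMA expression value (x axis) of the brightest probe set of each of the 35 member genes (y axis, in blocks by role) on each of the 6 arrays, with wild type in blue, hIAPP-Tg in orange, 1 marker shape per replicate and the array median dotted. The orange points lie to the right of all blue points for 19 genes, among them Cd68, Mpeg1 and Ctss, and mix with them for genes such as Cd14, Siglec1 and Spi1.

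The lineage markers differed most as a group. All 5 were higher at an unadjusted p under 0.05 without overlap, by 0.73 to 1.90, and their mean was 6.96 to 7.12 in wild type against 8.26 to 8.40 in hIAPP-Tg. Mpeg1 encodes perforin-2, a pore-forming protein of phagosomes. It stood at 7.4, 7.3 and 7.4 in wild type and at 9.0, 8.8 and 9.0 in hIAPP-Tg islets. Values within a genotype were thus at most 0.2 apart, which is far less than the gap between genotypes. Mpeg1 rose 2.96-fold (log2 difference 1.57, SE 0.078, limma adjusted p = 0.00683). The call did not hold without any 1 wild-type array or without hIAPP-Tg replicate 4 or 6, where the adjusted p was 0.176 to 0.286 and the difference 1.53 to 1.58.

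Cd68, a heavily glycosylated protein of late endosomes and lysosomes, had the largest measured difference of the 35. It was at 5.1 on each of the 3 wild-type arrays and at 7.5, 6.5 and 7.0 on the hIAPP-Tg arrays. The wild-type values lay below the array median, where signal may not exceed background, in which case the measured difference understates the change, and the hIAPP-Tg values spread over 1 log2 unit. The difference was 1.90 (SE 0.24, 95% confidence interval 1.33 to 2.47, limma adjusted p = 0.15). Ctss encodes cathepsin S, a lysosomal protease that trims the invariant chain of class II molecules. Its values were 10.3, 10.1 and 10.0 in wild type and 11.0, 11.4 and 11.4 in hIAPP-Tg islets, a difference of 1.13 (SE 0.14, limma adjusted p = 0.133). Adgre1 encodes the classical surface antigen by which mouse macrophages are stained. It was at 6.4, 7.2 and 6.7 in wild-type and 7.7, 8.2 and 7.8 in hIAPP-Tg islets, a difference of 1.13 (SE 0.23, limma adjusted p = 0.419). Its wild-type values were less even than those of Mpeg1, and the gap between the nearest arrays of the genotypes was narrower. Aif1, the calcium- and actin-binding protein known as Iba1, was at 5.6, 5.9 and 5.9 against 6.4, 6.4 and 6.8 (difference 0.73, SE 0.14, limma adjusted p = 0.41).

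The region around the transcription start was read for 4 members whose differences were among the larger ones, because PU.1 binds a purine-rich motif in many myeloid promoters and its own gene is on the list. RefSeq windows (GRCm38.p6) from 250 bases before to 50 after the start were on hand for 20 of the 35 genes, as 25 windows. The 7 letters GAGGAAG, or CTTCCTC where they lie on the opposite strand, are shown in capitals, and the rest is in lower case, 5′ to 3′ along the gene. They occurred in 5 of the 25 windows (20%), those of Cd53, Ctss, Itgam, Laptm5 and Mrc1, and in 13.6% of all 32851 windows. Cd53, Ctss and Laptm5 were higher in hIAPP-Tg islets at an unadjusted p under 0.05, and Itgam and Mrc1 were not. The other members with a log2 difference of 1 or more, Cd68, Gpr34, Adgre1 and Ly86, had no match or no window, so the printed genes do not represent the higher members. Mpeg1 (chr19:12460520-12460819, + strand) had no match. In Ctss (chr3:95526536-95526835, + strand) the match spans the start site, in Cd53 (chr3:106790100-106790399, - strand) it lies 8 to 14 bases into the transcript, and in Laptm5 (chr4:130913066-130913365, + strand) it lies at -39 to -33. All 3 matches are on the opposite strand. These are matches of letters, and binding was not measured.
Mpeg1: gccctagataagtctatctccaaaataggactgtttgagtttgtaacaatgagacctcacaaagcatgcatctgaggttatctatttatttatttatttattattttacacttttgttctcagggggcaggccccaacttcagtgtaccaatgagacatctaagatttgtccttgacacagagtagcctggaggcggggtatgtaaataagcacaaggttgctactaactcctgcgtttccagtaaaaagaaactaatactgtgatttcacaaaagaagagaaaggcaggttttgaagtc
Ctss: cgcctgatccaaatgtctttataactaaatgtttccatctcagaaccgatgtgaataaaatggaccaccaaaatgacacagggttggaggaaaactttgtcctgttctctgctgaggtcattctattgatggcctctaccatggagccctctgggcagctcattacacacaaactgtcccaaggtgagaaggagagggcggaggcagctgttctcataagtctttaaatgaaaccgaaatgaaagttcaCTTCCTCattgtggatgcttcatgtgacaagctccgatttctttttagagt
Cd53: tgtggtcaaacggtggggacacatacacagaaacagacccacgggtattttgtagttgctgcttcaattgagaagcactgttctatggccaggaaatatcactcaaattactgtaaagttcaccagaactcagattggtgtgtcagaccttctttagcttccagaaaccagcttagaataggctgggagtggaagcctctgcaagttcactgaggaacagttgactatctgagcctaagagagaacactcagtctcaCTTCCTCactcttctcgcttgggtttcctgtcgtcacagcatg
Laptm5: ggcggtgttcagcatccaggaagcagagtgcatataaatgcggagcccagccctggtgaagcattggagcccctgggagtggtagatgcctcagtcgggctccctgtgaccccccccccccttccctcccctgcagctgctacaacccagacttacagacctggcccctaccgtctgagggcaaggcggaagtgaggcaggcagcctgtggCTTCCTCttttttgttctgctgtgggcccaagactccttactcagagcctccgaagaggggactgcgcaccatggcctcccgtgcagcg

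Receptors for growth factors and chemokines divided into members that were higher and members that were not. Csf1r, the receptor for the macrophage growth factors Csf1 and Il34, was at 8.9, 8.9 and 8.7 in wild type against 9.2, 9.7 and 9.6 in hIAPP-Tg. The genotypes did not overlap, and the difference was 0.67 (SE 0.14, limma adjusted p = 0.419). Cx3cr1, the receptor for fractalkine, was at 6.6, 6.4 and 6.6 against 7.1, 6.9 and 6.9 (difference 0.43, SE 0.09, limma adjusted p = 0.419). Ccr2, which draws inflammatory monocytes out of the blood, was at 5.7, 5.8 and 5.9 against 5.9, 5.6 and 5.7. These values overlapped fully, and the difference of -0.067 had a 95% confidence interval of -0.30 to 0.17. All 4 Ccr2 probe sets lay below 0, down to -0.30 (limma unadjusted p = 0.0041, adjusted p = 0.449), with the 3 dimmer ones under the array median. Csf2rb, the shared chain of the receptors for GM-CSF, interleukin-3 and interleukin-5, was at 5.0, 5.0 and 4.9 against 4.8, 4.9 and 4.8, all under the array median (difference -0.13, SE 0.063, limma adjusted p = 0.632). A probe set shared with its near-identical neighbour Csf2rb2 was left out.

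Among the integrins the shared beta chain Itgb2 (CD18) stood at 5.5, 5.4 and 4.9 in wild type against 5.9, 6.1 and 5.9 in hIAPP-Tg. Wild-type replicate 3 was the lowest by 0.5, and the genotypes did not overlap (difference 0.70, SE 0.17, limma adjusted p = 0.471). Itgax, the CD11c alpha chain that pairs with it, was at 6.1, 6.0 and 5.8 against 6.3, 6.4 and 6.6 (difference 0.47, SE 0.11, limma adjusted p = 0.493). Itgam, the CD11b alpha chain, was at 4.3, 4.2 and 4.1 against 4.4, 4.7 and 4.0. Its genotypes overlapped, every value lay under the array median, and the 95% confidence interval of the difference ran from -0.26 to 0.59.

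Scavenger and pattern receptors were mixed, with 3 of 8 higher at an unadjusted p under 0.05 and a median difference of 0.12. Ly86, or MD-1, which holds the receptor Cd180 at the surface, was at 6.0, 6.1 and 6.1 in wild type against 6.8, 7.5 and 7.1 in hIAPP-Tg (difference 1.07, SE 0.17, limma adjusted p = 0.283). Clec7a, the beta-glucan receptor Dectin-1, was at 5.4, 5.3 and 5.4 against 6.3, 5.7 and 6.2 (difference 0.70, SE 0.16, limma adjusted p = 0.449). For both, the wild-type arrays agreed within 0.1 while the hIAPP-Tg arrays spread over 0.6 to 0.7. Tlr7, an endosomal sensor of single-stranded RNA, differed by 0.20 (SE 0.063, limma adjusted p = 0.552), while Unc93b1, which carries such sensors to endosomes, differed by 0.10 (95% confidence interval -0.089 to 0.29).

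The remaining receptors of this group overlapped between the genotypes. Mrc1, Cd163 and Siglec1 are often used to mark resident or alternatively activated macrophages. The mannose receptor Mrc1 was at 4.6, 4.7 and 4.6 in wild type against 4.5, 4.6 and 4.4 in hIAPP-Tg, a difference of -0.13 (95% confidence interval -0.31 to 0.044). The haemoglobin scavenger Cd163 was at 4.0, 4.0 and 3.5 against 3.9, 4.1 and 3.9. Both genes lay under the array median on every array, so a difference in them may not have been detectable. Siglec1, a receptor for sialylated glycans, was at 7.0, 7.0 and 6.9 against 7.0 on each hIAPP-Tg array (difference 0.033, 95% confidence interval -0.10 to 0.17). Its other probe sets also overlapped but were at 3.9 to 4.2 and at 4.8 to 5.1, under the array median. Cd14, the co-receptor for lipopolysaccharide, was at 6.9, 6.4 and 6.4 against 6.7, 6.6 and 6.6, so that wild-type replicate 1 alone was above all hIAPP-Tg arrays. The interval of its difference was -0.28 to 0.42.

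Gpr34, a receptor for lysophosphatidylserine, came closest to the threshold after Mpeg1. It was at 3.9, 4.1 and 3.8 in wild type against 5.2, 5.4 and 5.1 in hIAPP-Tg, with a gap of 1 between the nearest arrays and every value under the array median. The difference was 1.30 (SE 0.11, limma adjusted p = 0.0516), and the adjusted p was 0.00602 to 0.681 over its 14 alternatives, of which 6 passed. P2ry6, a receptor for UDP, was at 5.0, 4.9 and 4.5 against 4.9, 5.2 and 5.0, with overlap (difference 0.23, 95% confidence interval -0.13 to 0.60). The co-stimulatory proteins of antigen presentation also overlapped. Cd83 differed by 0.33 (95% confidence interval -0.082 to 0.75) and Cd86 by 0.10 (-0.099 to 0.30), at levels under the array median in both genotypes.

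**Figure D2:**
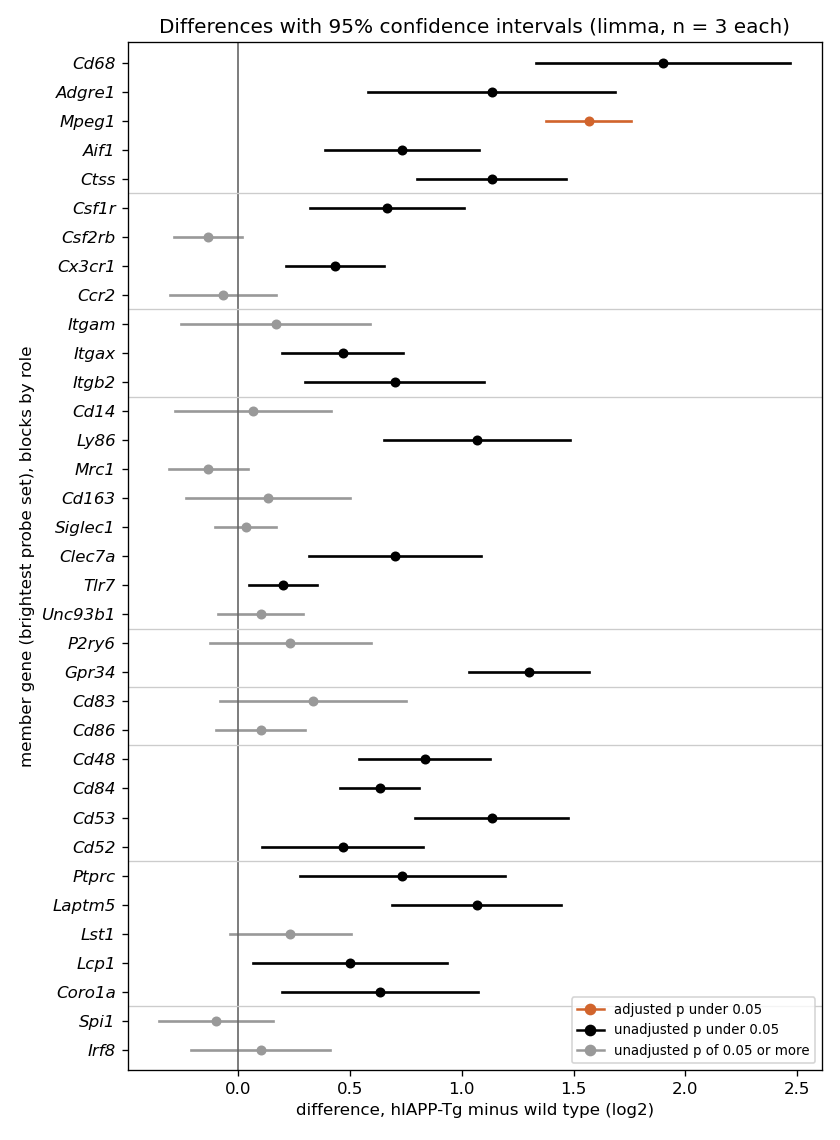
Difference between genotypes, hIAPP-Tg minus wild type on the log2 scale (x axis), for the 35 member genes (y axis, in blocks by role), as points with 95% confidence intervals from limma and 3 arrays per genotype. Orange marks Mpeg1, the only member with an adjusted p under 0.05, black the other 20 with an unadjusted p under 0.05, and grey the 14 above it, which include Spi1, Irf8, Ccr2 and Cd163.

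All 4 of the small surface proteins of leukocytes were higher at an unadjusted p under 0.05, and 3 of them without overlap. Cd53, a tetraspanin, was at 6.4, 6.5 and 6.8 in wild type against 7.9, 7.7 and 7.5 in hIAPP-Tg (difference 1.13, SE 0.14, limma adjusted p = 0.15). Cd48, a lipid-anchored member of the SLAM family, was at 4.7, 5.1 and 4.7 against 5.7, 5.6 and 5.7 (difference 0.83, SE 0.12, limma adjusted p = 0.229). Cd84, a self-binding receptor of the same family, was at 4.4, 4.5 and 4.3 against 5.0, 5.0 and 5.1 (difference 0.63, SE 0.073, limma adjusted p = 0.118). The means of the last 2 lay under the array median in both genotypes. Cd52, a short lipid-anchored glycopeptide also carried by lymphocytes, was at 7.0, 6.6 and 6.5 against 7.0, 7.3 and 7.2, where wild-type replicate 1 equalled the lowest hIAPP-Tg array (difference 0.47, SE 0.15, limma adjusted p = 0.557).

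The pan-leukocyte genes, taken as a mean, differed by 0.63 against 0.77 for the small surface proteins, with a wider spread among the wild-type arrays. Their mean over 5 genes was 6.82, 6.64 and 6.48 in wild type and 7.12, 7.48 and 7.24 in hIAPP-Tg islets. Ptprc encodes CD45, the phosphatase found on nearly all leukocytes. It was at 7.1, 6.5 and 6.6 against 7.2, 7.6 and 7.6 (difference 0.73, SE 0.19, limma adjusted p = 0.502), and wild-type replicate 1 came within 0.1 of the lowest hIAPP-Tg array. Laptm5, a lysosomal membrane protein of blood cells, was at 6.9, 7.0 and 6.8 against 7.7, 8.3 and 7.9 (difference 1.07, SE 0.16, limma adjusted p = 0.236). Coro1a, an actin-binding protein of phagosomes and the immune synapse, differed by 0.63 (SE 0.18, limma adjusted p = 0.552) and did not overlap on its brightest probe set. The actin bundler Lcp1 differed by 0.50 (SE 0.18, limma adjusted p = 0.62), and wild-type replicate 1 and hIAPP-Tg replicate 4 were both at 6.3. Lst1, an adaptor-like membrane protein of myeloid cells, differed by 0.23 with overlap (95% confidence interval -0.037 to 0.50).

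The 2 transcription factors on the list did not follow the lineage markers. Spi1 was at 6.2, 6.3 and 6.1 in wild type against 6.0, 6.0 and 6.3 in hIAPP-Tg. The difference was -0.10, and its 95% confidence interval of -0.35 to 0.15 does not include the difference measured for any of the 5 lineage markers. Irf8, which steers monocyte and dendritic cell development, was at 5.7, 5.4 and 5.5 against 5.4, 5.7 and 5.8 on its brightest probe set (difference 0.10, 95% confidence interval -0.21 to 0.41). Its other probe set was at 5.0, 4.9 and 5.1 against 5.4, 5.2 and 5.4, without overlap (difference 0.33, limma unadjusted p = 0.0077, adjusted p = 0.502). Which of them reads the transcript better is not known here.

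Probe sets of the same gene did not always move together. Of the 35 members 14 had more than 1 probe set, and for 9 of these the brightest was higher at an unadjusted p under 0.05, but for Lcp1 alone did all probe sets share this. Over the 23 probe sets that were not the brightest of their gene, 5 were higher and 1 lower at an unadjusted p under 0.05, against 3.82% and 3.51% of all probe sets, and the median difference was 0.067. Laptm5 had 5 probe sets, with differences of 1.07, 0.53, 0.47, -0.10 and -0.13. The pair below 0 were at 6.2 to 6.7 on all arrays, above the array median. Csf1r had differences of 0.67, 0.43 and 0.17 on its 3 probe sets, in the order of their mean level. Coro1a had differences of 0.63, 0.37 and 0.067, and the genotypes overlapped on the probe set at 0.37, which was at 5.6 to 6.4. Tlr7 had differences of 0.20, 0.033 and -0.067, with the dimmer probe sets at 3.7 to 4.1. The second probe sets of Cd53 (0.067), Cd84 (-0.17), Cx3cr1 (0.10) and Ptprc (0.10) were at 3.7 to 4.6 on all arrays, under the array median. With the probe sets of each gene averaged, 31 members still lay above 0, the median difference was 0.35, and Mpeg1 and Gpr34 passed an adjusted p of 0.05 at gene level.

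**Figure D3:**
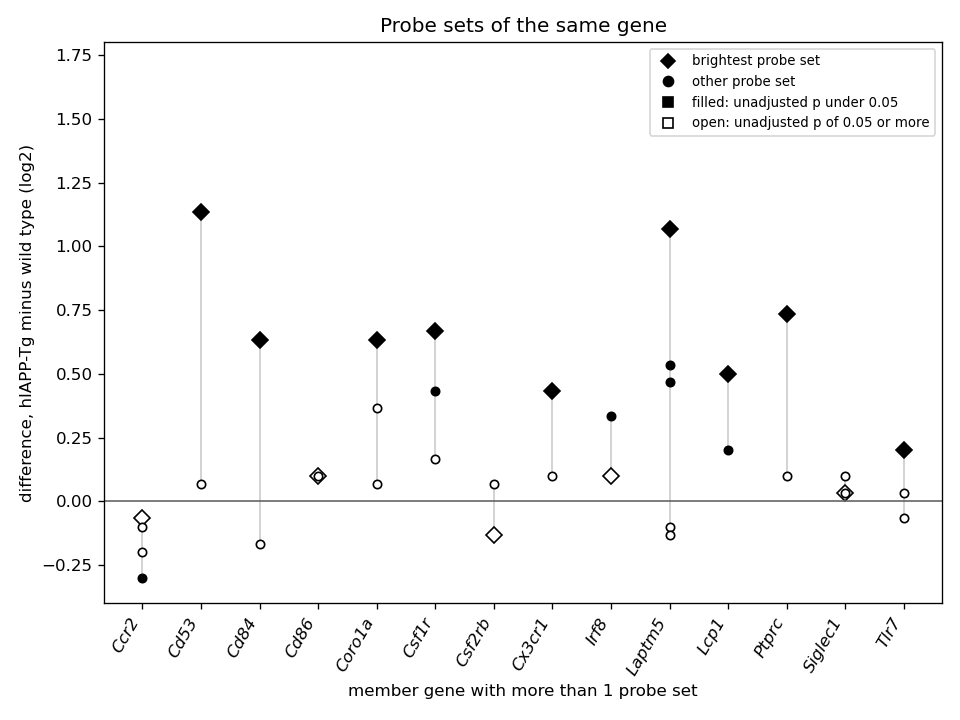
Difference between genotypes, hIAPP-Tg minus wild type on the log2 scale (y axis), for every probe set of the 14 member genes with more than 1 (x axis), with diamonds for the brightest probe set, circles for the others and filled symbols for an unadjusted p under 0.05. The probe sets of Laptm5 run from -0.13 to 1.07, those of Lcp1 are both filled, and all 4 of Ccr2 lie below 0.

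The mean over the 35 genes was 6.01, 5.98 and 5.87 in wild type and 6.45, 6.55 and 6.50 in hIAPP-Tg islets, a difference of 0.54 given as a description. The arrays of a genotype were not alike in which genes stood highest. Among the hIAPP-Tg arrays, replicate 5 alone was highest for 16 members, replicate 6 for 7 and replicate 4 for 6. Replicate 5 alone was lowest for 5 members, Cd68, Mpeg1, Clec7a, Cd48 and Ccr2. Among the wild-type arrays, replicate 3 alone was lowest for 17 members. The arrays also differed in acinar marker level, which was lowest on hIAPP-Tg replicate 5 and highest on wild-type replicate 3. With the acinar mean as a covariate, 20 of the 21 members remained higher at an unadjusted p under 0.05, all but Lcp1, against 4.41% of all genes in that fit. Csf2rb was lower there (-0.18, limma unadjusted p = 0.048), against 2.58% of all genes. Mpeg1 differed by 1.61, and the median over the members was 0.40. With each array left out in turn, 18 to 23 members were higher at an unadjusted p under 0.05, and 30 of 35 kept their direction. The shares over all genes were not counted for these fits, so these counts have no baseline. The members that did not keep their direction were Ccr2, Itgam, Cd14, Cd163 and Siglec1, whose differences reached or crossed 0.

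Ligands of these receptors gave few calls in either direction. Of 15 measured, 0 were higher and 1 was lower at an unadjusted p under 0.05, against 5.02% and 3.45% of all genes. Counts this small are near those shares, and 0 passed the adjusted threshold in limma. Both genotype means of 11 of the 15 lay under the array median, so differences in them may have been missed. The lower one was Cx3cl1, the fractalkine ligand of Cx3cr1, at 6.9, 6.9 and 7.1 in wild type against 6.5, 6.6 and 6.7 in hIAPP-Tg (difference -0.37, SE 0.087, limma adjusted p = 0.471). Csf1, at 7.5, 7.1 and 7.0 against 6.9, 7.4 and 7.1, overlapped between the genotypes while its receptor did not. Of 13 partners and adaptors of the members, 4 were higher and 0 lower at an unadjusted p under 0.05, against the same 5.02% and 3.45%. Tyrobp, the signalling adaptor of many myeloid receptors, passed the adjusted threshold (difference 1.50, SE 0.11, limma adjusted p = 0.0271). Of 11 other myeloid transcription factors, Cebpb alone was higher (difference 0.40, SE 0.11, limma adjusted p = 0.521), and 0 were lower, which is near the shares over all genes.

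Markers of other myeloid and lymphoid cells were set beside the members. A further list of 19 macrophage genes had 14 higher and 0 lower at an unadjusted p under 0.05, against 5.02% and 3.45% of all genes. Its median was 0.57, and 1 gene passed the adjusted threshold, Ms4a7 (difference 1.90, SE 0.13, limma adjusted p = 0.0269). The lists set beside the members were chosen with earlier results of these data known, so their counts are descriptions and no independent support. Lists typical of other leukocytes gave few or none. At an unadjusted p under 0.05, 0 of 14 T and NK cell markers, 0 of 9 B cell markers, 0 of 9 dendritic cell markers and 0 of 8 mast cell markers were higher or lower. Their medians were 0, -0.033, 0 and -0.083. Of 9 neutrophil markers Csf3r alone was higher (difference 0.23), with the list mean at 4.99 to 5.12 in wild type and at 5.08, 5.48 and 5.06 in hIAPP-Tg islets. S100a8 and S100a9 had larger differences (0.67 and 0.63) with overlap. For both, only hIAPP-Tg replicate 5 stood out, at 6.3 and 6.1, with the other arrays at 4.3 to 4.6. Of 6 monocyte markers Vcan alone was lower (-0.20), and of 8 further markers of resident macrophages Gas6 alone (-0.17), with medians of -0.083 and 0. In the resident list Lyve1 (0.70) and F13a1 (-0.43) had larger differences, in opposite directions and with overlap. For both, hIAPP-Tg replicate 5 was the extreme array, at 8.9 and 5.4. Many of these markers lay under the array median in both genotypes, 11 of 14 for T and NK cells and 7 of 9 for neutrophils, where RMA compresses differences. Their part in the differences of the members was not tested.

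Class II genes went against the members. Of 6 measured, 5 were lower and 0 higher at an unadjusted p under 0.05, against 3.45% and 5.02% of all genes. None passed the adjusted threshold in limma. Their mean was 7.93, 7.67 and 7.50 in wild type against 7.23, 7.32 and 7.35 in hIAPP-Tg, without overlap. H2-Ab1 was at 9.8, 9.6 and 9.4 against 8.9, 9.1 and 9.0 (difference -0.60, SE 0.11, limma adjusted p = 0.405). Ctss, whose protease acts on the chaperone of class II molecules, lay on the other side of 0 on the same arrays.

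**Figure D4:**
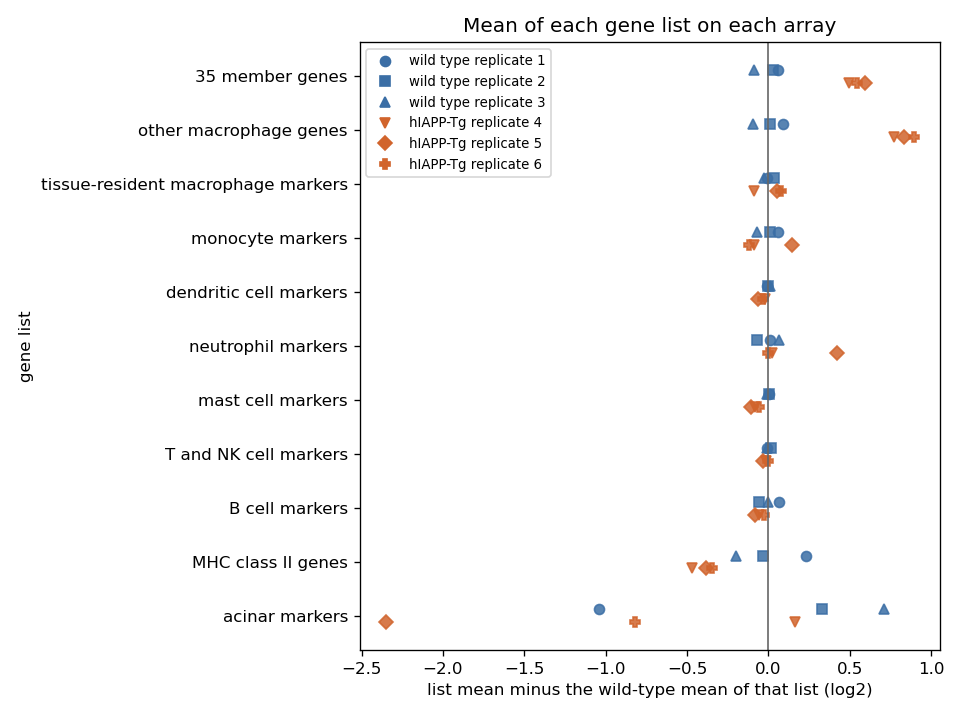
Mean of each gene list on each array minus the wild-type mean of that list, on the log2 scale (x axis), for the 35 member genes and 10 lists of other markers (y axis), with wild type in blue, hIAPP-Tg in orange and 1 marker shape per replicate. The hIAPP-Tg arrays lie above all wild-type arrays for the members and for the other macrophage genes. They lie below them for class II genes and, by narrow gaps, for dendritic and mast cell markers, while acinar markers spread widely within both genotypes.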

How the data were processed

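Per the labels' protocols, RNA was taken up in Trizol from islets of 3 wild-type and 3 hIAPP-Tg mice and hybridised to 1 Affymetrix array each. The authors deposited log2 expression values. The submitters' processing notes name RMA and affy, without versions. Values lay between 2.9 and 15.1, in steps of 0.1, and had a median of 5.7 on every array. RMA sets all arrays to 1 distribution and compresses differences near the floor. Arrays have no read depth, and their number limits the precision.

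The 64 control probe sets were left out. Of the 45037 tested, 34945 had 1 gene symbol in the platform annotation, 932 several and 9160 none. All 35 member symbols matched their Entrez number in RefSeq (GRCm38.p6). Differences were tested in R 4.3.3 by limma 3.58.1, with a two-sided moderated test from lmFit and eBayes, without covariates, and with Benjamini-Hochberg adjustment over all probe sets. Intervals are moderated 95% intervals. The members and lists were chosen with earlier results of these data known, so list counts are descriptions. All members are named. Of the other lists, genes past the adjusted threshold are named, or else up to 2 with the smallest unadjusted p under 0.05. Csf1, Lum, Lyve1, F13a1, S100a8 and S100a9 were added after their values were seen. Marker list counts leave out members. Some listed genes are not analysed here.

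The test was tried on simulated data for hIAPP-Tg against wild type with 45037 probe sets. Alternatives were quantile normalization, median centring, leaving out dim probe sets, trend and robust priors, array weights, averaged probe sets, an acinar covariate, noise within the rounding step, and leaving out each array. Figures were drawn with matplotlib 3.10.9.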

Additional observations from a re-analysis of the deposited data

How the results depend on the processing

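Over all alternatives the members gave 512 differences, of which 6 changed sign, 14 gained and 5 lost the call, and 487 kept direction and side of the threshold. Not all of these could have changed. Median centring left every value as it was relative to the others, because all arrays had the same median. The trended and robust priors could move a call but not a difference, so the count of kept directions overstates stability. Probe sets past the adjusted threshold were 13 in all, 30 with quantile normalization, 51 with a robust prior, 26 with array quality weights, 4 with the acinar covariate, 52.5 (median of 20 draws) with noise within the rounding step and 1 to 4 with an array left out. Members past it were 1, then 2 with quantile normalization, 2 with a trended prior, 6 with a robust prior, 2 with array quality weights, 2 with averaged probe sets, 6 with rounding noise and 0 to 1 with an array left out, and the same counts held for member probe sets where these could be counted. A total of 286 probe sets had identical values within both genotypes, and the noise removes such ties. Why the counts changed between settings was not tested. The median over the members was 0.65 and the mean difference 0.66 with dim probe sets left out, which leaves fewer members. They were 0.35 and 0.46 with averaged probe sets. The median was 0.57 with array quality weights, 0.40 with the acinar covariate and 0.38 to 0.62 with an array left out. Differences near 0 changed sign. With the acinar covariate Ccr2 was at 0.044, Cd14 at -0.016 and Irf8 at -0.017. With an array left out in turn Cd14 ran from -0.017 (without wild-type replicate 2 or 3) to 0.23, and Cd163 from -0.033 (without wild-type replicate 3) to 0.22. None of these 4 passed the test in any of these settings. No paired analysis was possible because the genotypes share no replicate number.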

Other observations

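Markers of the other cells in an islet preparation were measured as well. Of 10 endothelial markers 4 were lower and 0 higher at an unadjusted p under 0.05, against 3.45% and 5.02% of all genes. Among the lower ones were the angiopoietin receptor Tek (-0.33, limma adjusted p = 0.502) and Egfl7, a secreted vessel protein (-0.30, limma adjusted p = 0.502). Of 10 fibroblast and stellate markers 7 lay below 0, with a median of -0.22. At an unadjusted p under 0.05, 2 were higher, the receptor Pdgfrb (0.43) and the smooth muscle actin Acta2 (0.60), and 1 was lower, Lum (-0.50). The same shares over all genes apply to these small counts. Of 6 platelet and red cell markers 0 were higher or lower, and of 20 acinar markers all lay below 0, by a median of -1.03, with 0 at an unadjusted p under 0.05. No gene of these 4 lists passed the adjusted threshold in limma.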
